A study of Homo sapiens with 4 samples.

Results

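The genes described here are 31 well-known transcriptional targets of the tumour suppressor p53, found by symbol among 61533 gene identifiers of an RNA sequencing count table. All 31 were measured, and all 31 passed the filter on low counts that left 15950 genes for testing. The table compares Caki-1, a long-established line from a human renal cell carcinoma, after lentiviral delivery of short hairpin RNA against the transcription factor TFE3 (shTFE3, 2 libraries, genotype TFE3-KD) or of a control sequence (shControl, 2 libraries, genotype WT). In both arms cells were replated 24 hours after infection, received puromycin at 1 µg/ml a further 12 hours later, and were harvested after 3 days of selection. The number of hairpins is not given, nor whether the 2 libraries of an arm came from separate infections, so the spread behind every p-value is that of these libraries and may be technical.

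p53 is a transcription factor that is stabilised by DNA damage and other stresses and then switches on a scattered set of genes. Some of them halt the cell cycle, some repair DNA, some sensitise cells to death, and some, led by MDM2, degrade or silence p53 and so close a feedback loop. The members were grouped by these roles: 5 feedback genes, 5 arrest genes, 4 repair genes, 5 death receptors, 6 mitochondrial or metabolic genes, and 6 other genes of signalling and death.

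The start regions of some members hold a match to the motif p53 is known to bind, and these matches are shown so that the letters can be compared. RefSeq start windows, from 250 bases before to 50 bases after a start (build GRCh38.p14), were at hand for 22 of the 31 members. A window was scored for a p53 site, meaning a pair of 10-base p53 half-sites with 0 or 1 base between them and at most 2 mismatches over the 20 positions; the half-site reads the same on both strands. Such a site was present for 4 of the 22 members, against 1.69% of 27305 genes with a window. Of these 22 members 11 rose, among them DDB2, MDM2 and AEN of the 4 with a site, and a relation between site and change was not tested. Capitals mark the 4 central bases of each half-site, and every sequence reads 5′ to 3′ on the plus strand.
DDB2: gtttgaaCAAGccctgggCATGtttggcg
MDM2: agctggtCAAGttcagaCACGttccgaa
AEN: agccgggCTTGcccgggCATGtgggagc
FAS: tcctggaCAAGccctgaCAAGccaagcc

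The DDB2 site (chr11:47214979-47214999) had 0 mismatches, a score shared by 0.0256% of genes (7 in all). It lay just downstream of one of the RefSeq starts of DDB2, in an exon of 2 and an intron of 2 of the GENCODE 29 transcripts that span it, outside coding sequence. The MDM2 site (chr12:68808923-68808942, 2 mismatches) was intronic in all 7 spanning transcripts and sat 82 to 101 bases upstream of an internal RefSeq start. The AEN site (chr15:88621306-88621325, 2 mismatches) lay 15 to 34 bases upstream of the RefSeq start of AEN. It was in an exon of the 1 GENCODE 29 transcript that spans it, outside coding sequence. The FAS site (chr10:88991309-88991328, 2 mismatches) was intronic in 11 of 13 spanning transcripts. A match describes letters in a window, and binding was not measured here.

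The E-box CACGTG, the core of the motif that TFE3 and its relatives recognise (read alike on both strands), was present in a window of 2 of the 22 members, AEN and EDA2R, against 8.77% of all genes. The longer form TCACGTG or its reverse complement CACGTGA, which contains that core, was found for 0 of the 22 members and for 4.49% of all genes. The AEN element (chr15:88621348-88621353) lay downstream of the RefSeq start and close to the p53 site shown above.
AEN: ttccggacgcCACGTGcagaccggaa

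TFE3 itself was lower in the knockdown, as its label says, at 69.9 and 66.8 CPM (read counts scaled by sequencing depth with TMM factors) in shTFE3 against 131 and 128 CPM in shControl. Its log2 fold change was -0.92 (SE 0.0624, adjusted p by edgeR 5.6e-11). Library totals lay between 17270180 and 17742519 counts, and 3 counts corresponded to 0.169 to 0.174 CPM. The renal marker PAX8 was abundant in both arms (464 and 463 CPM in shTFE3, 423 and 454 CPM in shControl). KRT8, KRT18, CDH16 and VIM were also present, with KRT18 lower in shTFE3 (log2 fold change -0.28, adjusted p by edgeR 0.00191). NDUFA4L2 was higher in shTFE3 (log2 fold change 1.94, adjusted p by edgeR 0.00335). Its counts were 16 and 21 in shTFE3 against 5 and 4 in shControl. EPCAM had 8 and 11 counts in shTFE3 against 21 and 10 in shControl. PAX2 and CA9 held 0 counts in all 4 libraries. Of 15 markers of leukocytes, endothelium, stroma, blood and liver, 9 had at most 3 counts in every library, 4 of them (CD3E, MS4A1, CDH5 and HBB) at 0. The list summed to 609 and 520 counts in shTFE3 against 536 and 533 in shControl. Its highest counts were those of PDGFRB (232 and 220 in shTFE3, 197 and 193 in shControl) and ACTA2 (174 and 108, 145 and 132). COL1A1 (112 and 118, 141 and 143) and PECAM1 (68 and 58, 48 and 54) came next, with CD14 and ALB at 2 to 11 counts.

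Of the 31 p53 targets, 11 rose in shTFE3, 1 fell and 19 did not pass (quasi-likelihood test of edgeR, threshold 0.05 after Benjamini-Hochberg adjustment over all 15950 genes). The risen genes were CDKN1A, BTG2 and PLK3 (arrest), DDB2 and POLH (repair), MDM2 and PPM1D (feedback), FDXR and TIGAR (mitochondria and metabolism), and AEN and ZMAT3. The one that fell was the repair gene RRM2B. In bulk RNA, a change in the share of cells that express a gene and a change in RNA per cell cannot be told apart. No death receptor passed, where 10.3% of all tested genes rose and 12.9% fell. Values above 0 were seen for 4 of the 5, and for 8019 of all 15950 genes tested. TNFRSF10D and EDA2R had an unadjusted p under 0.05 by edgeR, and DESeq2 also called 0 death receptors.

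The 11 risen members make 35.5% of the list, against 10.3% of all genes tested that rose, and the 1 fallen member stands against 12.9% that fell. The median log2 fold change was 0.13 over the 31 members and 0.0015 over all genes tested. A value above 0 was seen for 26 of the 31 members, against 8019 of all 15950 genes tested. All changes were under 2-fold: the risen members ranged from 0.28 to 0.71 on the log2 scale, with a median of 0.40. Both knockdown libraries lay above both control libraries for 19 members, or below them for 2, where 29.7% and 30.5% of all tested genes did so.

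The count depended on the libraries kept. Without shTFE3 replicate 1, 4 members rose (CDKN1A, BTG2, DDB2 and AEN), where 3.6% of all tested genes rose and 5.62% fell. Without shTFE3 replicate 2, 5 members rose (MDM2, CDKN1A, BTG2, DDB2 and ZMAT3), where 2.22% of genes rose and 4.08% fell. Without shControl replicate 1, 9 members rose and 1 fell (6.06% and 9.08% of genes), and without shControl replicate 2, 10 rose and 0 fell (6.06% and 8.99% of genes).

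Other tools and scalings moved the count as well. DESeq2 called 6 members up (CDKN1A, DDB2, BTG2, MDM2, FDXR and AEN) and 0 down, with 5.5% of genes up and 8.82% down. Scaling by library totals alone gave 15 members up and 0 down (13.3% and 10.5% of genes) and changed the split over all genes, which was 1650 up and 2059 down, to 2119 up and 1680 down. Testing only genes with at least 50 counts in 2 libraries gave 15 up and 1 down (13.8% and 15.6% of genes). With no filter on low counts 1 member rose and 0 fell (0.325% and 0.876% of genes). RLE factors (10.4% of genes up and 12.8% down), upper quartile factors (9.95% and 12.8%) and limma-voom (10.2% and 12.9%) each called 11 members up and 1 down, as did a fit with a replicate term (9.83% and 12.5%).

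**Figure D1:**
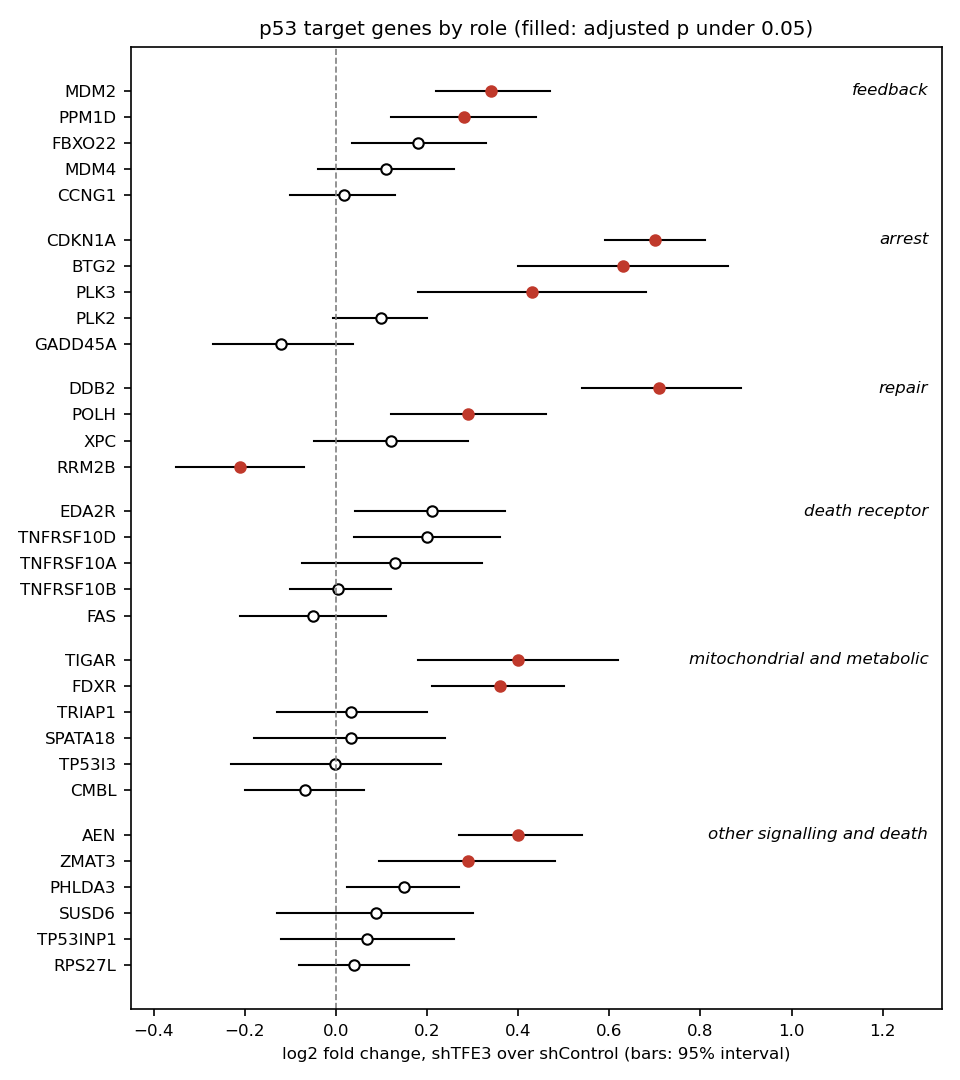
The log2 fold change of each of the 31 p53 targets (shTFE3 over shControl, 2 libraries each) is plotted by role, with its 95% interval as a bar, not adjusted for the number of genes. Filled points passed an adjusted p of 0.05: CDKN1A, BTG2 and DDB2 sit farthest to the right, and RRM2B is the filled point left of 0. Every death receptor is open, where 12241 of all 15950 genes tested did not pass.

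Among the arrest genes, CDKN1A encodes p21, the inhibitor of cyclin-dependent kinases through which p53 stops the cell cycle. CDKN1A (ENSG00000124762, chr6:36676460-36687339, plus strand, GENCODE 29 on GRCh38) had 335 and 332 CPM in shTFE3 against 207 and 205 CPM in shControl. Replicates differed by far less than the arms, which did not overlap. The level was 1.62-fold higher in shTFE3, a log2 fold change of 0.70 (SE 0.0543, 95% interval 0.59 to 0.81, adjusted p by edgeR 6.55e-10). The authors' deposited table, which lists 546 genes with an absolute log2 fold change of at least 0.585, gives CDKN1A the same value of 0.70 (adjusted p 3.43e-28). Of the 546 genes, that table lists 152 as higher and 394 as lower. Of the 31 members 3 are in it, CDKN1A, DDB2 and BTG2, all as higher. That table does not say how many genes its authors tested, and 15950 genes were tested here.

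BTG2, an antiproliferative gene of the BTG/TOB family, had 17.4 and 16.2 CPM in shTFE3 against 10.5 and 11.1 CPM in shControl. Its log2 fold change was 0.63 (SE 0.11, adjusted p by edgeR 0.000126); the arms did not overlap. PLK3, a stress-responsive polo-like kinase, had 12.6 and 14.4 CPM in shTFE3 against 10.8 and 9.26 CPM in shControl. The rise of PLK3 was 0.43 on the log2 scale (SE 0.123, adjusted p by edgeR 0.0113), and it did not pass without either shTFE3 replicate or without shControl replicate 2 (edgeR adjusted p 0.0712, 0.203 and 0.157), nor by DESeq2 (0.159).

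The remaining arrest genes did not pass. PLK2, a relative of PLK3, was the most abundant member per transcript length, at 304 CPM per kilobase of exon in shTFE3 and 284 in shControl. It had 1449.6 and 1452 CPM in shTFE3 against 1354 and 1358 CPM in shControl, arms that stood apart by little: the log2 fold change was 0.10 (95% interval -0.007 to 0.20, adjusted p by edgeR 0.177). GADD45A, which binds PCNA and p21 and acts in growth arrest after DNA damage, was the arrest gene with a value below 0. It had 41.9 and 42.6 CPM in shTFE3 against 47.8 and 43.8 CPM in shControl (log2 fold change -0.12, 95% interval -0.27 to 0.038, adjusted p by edgeR 0.286).

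**Figure D2:**
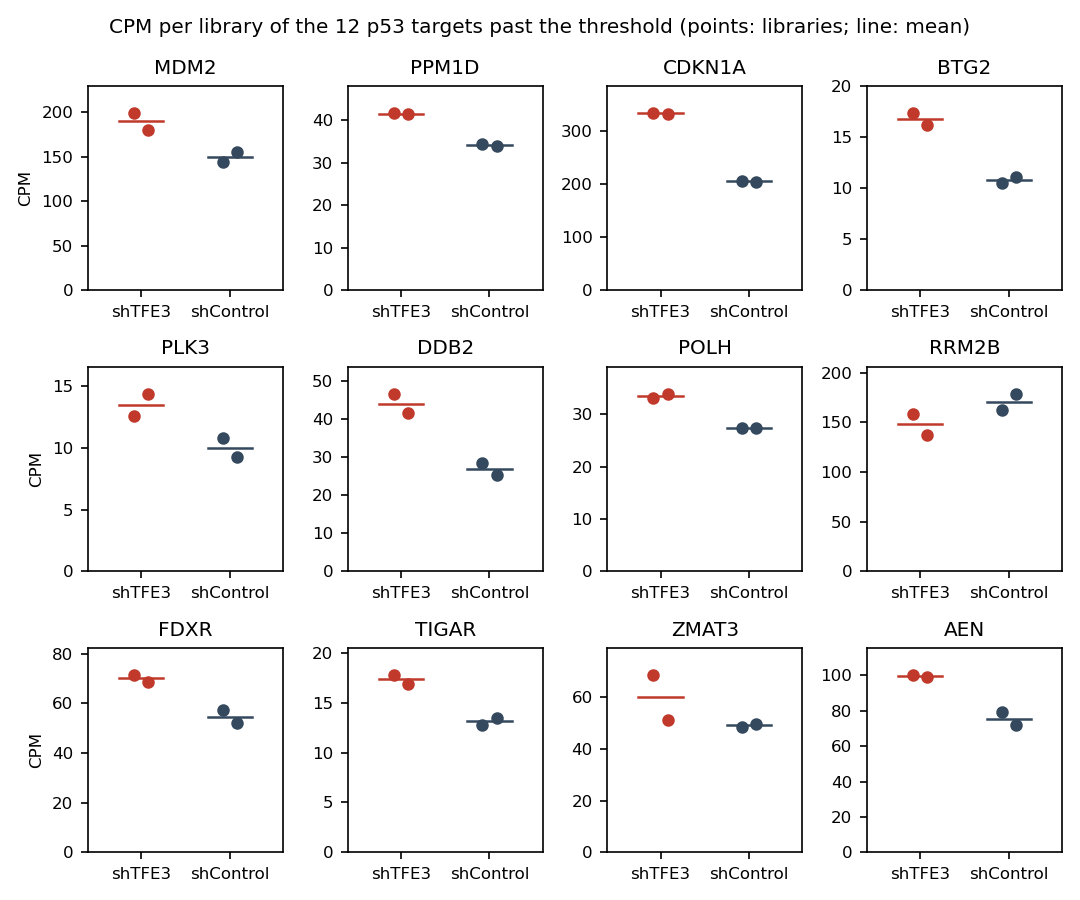
CPM in each library is plotted for the 12 p53 targets past the threshold, shTFE3 left and shControl right, with axes from 0 and a line at the mean of each arm (n = 2). The arms do not overlap in any panel, the gap is widest relative to the level in CDKN1A, BTG2 and DDB2, and in ZMAT3 1 shTFE3 library lies near the controls.

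The repair genes went in both directions. DDB2 is the damage-recognition protein that starts nucleotide excision repair of ultraviolet lesions in chromatin. Its log2 fold change was the largest of the 31 members, close to that of CDKN1A (0.70). DDB2 carries the p53 site with 0 mismatches, while the best window matches of CDKN1A and BTG2 had 5 and 4 mismatches. A relation between site and change was not tested, and sites outside the windows were not looked at. DDB2 (ENSG00000134574, chr11:47214465-47239240, plus strand) had 46.7 and 41.5 CPM in shTFE3 against 28.4 and 25.4 CPM in shControl. It was 1.64-fold higher in shTFE3, a log2 fold change of 0.71 (SE 0.0855, 95% interval 0.54 to 0.89, adjusted p by edgeR 7.6e-07). POLH, the polymerase that copies past ultraviolet damage, had 33.1 and 33.9 CPM in shTFE3 against 27.4 and 27.4 CPM in shControl. Its log2 fold change was 0.29 (SE 0.0814, adjusted p by edgeR 0.0111). The replicates lay close together, yet the call was lost with each of the 4 libraries left out (edgeR adjusted p 0.0653 to 0.112) and by DESeq2 (0.122).

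XPC, which acts beside DDB2 in damage recognition, did not pass. It had 57.4 and 48.0 CPM in shTFE3 against 50.4 and 46.8 CPM in shControl, and the arms overlapped (log2 fold change 0.12, 95% interval -0.049 to 0.29). XPC shares 23.8% of its exon bases with an antisense gene that held 44 to 56 counts per library. Other genes on the opposite strand share 8.61% and 6.63%. The last, LSM3, held 666 and 728 counts in shTFE3 against 640 and 648 in shControl. Without a strand setting the reads of XPC and of these partners cannot be told apart in the shared stretches. RRM2B, the p53-induced subunit of ribonucleotide reductase that supplies nucleotides for repair, was lower, with 159 and 137 CPM in shTFE3 against 163 and 179 CPM in shControl. The highest shTFE3 library and the lowest shControl library of RRM2B lay near each other. Its log2 fold change of -0.21 (SE 0.0674, adjusted p by edgeR 0.0252) kept its call only without shControl replicate 1 among the fits with 1 library left out. Without shTFE3 replicate 1, shTFE3 replicate 2 and shControl replicate 2 it was -0.32, -0.11 and -0.14 (edgeR adjusted p 0.0611, 0.421 and 0.274), and it did not pass by DESeq2 (0.0727) or with library totals alone (log2 fold change -0.17).

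Of the feedback genes, MDM2 is the ubiquitin ligase that marks p53 for degradation. MDM2 (ENSG00000135679, chr12:68808176-68850686, plus strand) had 199.6 and 179.8 CPM in shTFE3 against 144 and 155 CPM in shControl. The arms did not overlap, and the log2 fold change was 0.34 (SE 0.0619, 95% interval 0.22 to 0.47, adjusted p by edgeR 0.000175). Without shTFE3 replicate 1 it was 0.27 (edgeR adjusted p 0.0645). The MDM2 exons overlap those of the carboxypeptidase M gene on the opposite strand over 1.0% of their bases, and that gene held 2990 and 2945 counts in shTFE3 against 3986 and 4013 counts in shControl.

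PPM1D, the phosphatase WIP1 that removes activating phosphates from p53 and its kinases, had 41.8 and 41.4 CPM in shTFE3 against 34.5 and 34.0 CPM in shControl. The log2 fold change of PPM1D was 0.28 (SE 0.0764, adjusted p by edgeR 0.00861), a call held only without shControl replicate 1 (0.0466) among the fits with 1 library left out, where the others gave 0.0713 to 0.0883, and lost by DESeq2 (0.0886). MDM4, the MDM2 relative that masks the activation domain of p53, had 50.9 and 50.6 CPM in shTFE3 against 45.4 and 48.6 CPM in shControl, a log2 fold change of 0.11 (95% interval -0.039 to 0.26, adjusted p by edgeR 0.296). FBXO22, a ubiquitin ligase subunit that targets p53 in a complex with a histone demethylase, had 81.1 and 77.7 CPM in shTFE3 against 64.9 and 75.0 CPM in shControl, a log2 fold change of 0.18 (95% interval 0.036 to 0.33, adjusted p by edgeR 0.0656). The arms of both genes stood apart without passing. The value of FBXO22 was 0.080 without shControl replicate 1 (adjusted p by edgeR 0.646) and 0.29 without shControl replicate 2 (0.0183), and it passed with library totals (0.0285) and at 50 counts (0.0487). CCNG1, cyclin G1, a partner of the phosphatase PP2A that acts on MDM2, did not pass. It had 344 and 328 CPM in shTFE3 against 321 and 343 CPM in shControl, arms that overlapped, and the 95% interval of its log2 fold change (0.018) was -0.10 to 0.13.

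The death receptors span the plasma membrane, and some of them trigger caspases when bound by their ligands. TNFRSF10D is a decoy that binds TRAIL without signalling death. TNFRSF10B, the TRAIL receptor DR5, was the most abundant of the 5 per transcript length (60.1 CPM per kilobase in shTFE3, 59.9 in shControl) and had 309 and 311 CPM in shTFE3 against 308 and 309.9 CPM in shControl. Its log2 fold change was 0.0056 (95% interval -0.10 to 0.12), an interval whose bounds are well under the changes of CDKN1A and DDB2. FAS, the receptor of FAS ligand and the carrier of an intronic p53 site shown above, had 50.9 and 56.6 CPM in shTFE3 against 51.6 and 59.7 CPM in shControl. The arms of FAS overlapped, and its log2 fold change was -0.051 (95% interval -0.21 to 0.11, adjusted p by edgeR 0.701). Its exons overlap those of ACTA2 on the opposite strand over 8.93% of their bases.

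The other TRAIL receptor, TNFRSF10A (DR4), had 20.3 and 23.2 CPM in shTFE3 against 19.6 and 20.3 CPM in shControl, with a log2 fold change of 0.13 (95% interval -0.074 to 0.32). The decoy TNFRSF10D had 43.7 and 42.5 CPM in shTFE3 against 35.9 and 39.2 CPM in shControl. EDA2R, the receptor of ectodysplasin A2, had 50.9 and 45.5 CPM in shTFE3 against 39.7 and 43.9 CPM in shControl. For both genes the arms stood apart, by log2 fold changes of 0.20 and 0.21 (edgeR adjusted p 0.0641 and 0.061). These 2 passed with library totals alone, and with a filter of at least 50 counts in 2 libraries, so the threshold lies close to their values. EDA2R also passed without shControl replicate 2 (0.28, adjusted p by edgeR 0.0479), and had 0.12 without shTFE3 replicate 1 and 0.13 without shControl replicate 1, while TNFRSF10D had 0.13 without shControl replicate 1. The difference between death receptors and the other roles was not tested.

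Among the mitochondrial and metabolic targets, FDXR, the ferredoxin reductase of mitochondrial electron transfer, had 71.5 and 68.7 CPM in shTFE3 against 57.2 and 52.0 CPM in shControl. The log2 fold change was 0.36 (SE 0.0703, adjusted p by edgeR 0.000426), with 0.33 without shTFE3 replicate 1 and 0.39 without shTFE3 replicate 2 (edgeR adjusted p 0.0684 and 0.0597). TIGAR, a phosphatase that lowers fructose-2,6-bisphosphate and so slows glycolysis, had 17.8 and 16.9 CPM in shTFE3 against 12.8 and 13.5 CPM in shControl. It rose by 0.40 on the log2 scale (SE 0.105, adjusted p by edgeR 0.00631) and passed only without shControl replicate 2 among the fits with 1 library left out (0.0183, others 0.0676 to 0.0984), and not by DESeq2 (0.117). Another annotated gene on the same strand shares 42.6% of the TIGAR exon bases and held 0 counts in every library, so reads from that stretch may be missing from the TIGAR level.

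The other 4 genes of this role did not pass and lay on both sides of 0. TP53I3, a quinone oxidoreductase, had 13.2 and 12.3 CPM in shTFE3 against 13.1 and 12.5 CPM in shControl, a log2 fold change of -0.0013 with an interval of -0.23 to 0.23. SPATA18, which acts in mitochondrial quality control, had 0.033, TRIAP1, a small survival protein of the mitochondrial intermembrane space, 0.034, and the hydrolase CMBL -0.068 as log2 fold changes. Their edgeR adjusted p-values lay between 0.489 and 0.859, and the arms of all 4 overlapped.

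In the last role, AEN, a nuclease that promotes apoptosis, had 100.4 and 99.0 CPM in shTFE3 against 79.2 and 71.8 CPM in shControl. Its log2 fold change was 0.40 (SE 0.0653, 95% interval 0.27 to 0.54, adjusted p by edgeR 5.17e-05), and 0.41 (0.0508) without shTFE3 replicate 2. ZMAT3, an RNA-binding protein and regulator of splicing, had 68.7 and 51.1 CPM in shTFE3 against 48.6 and 49.6 CPM in shControl. The second shTFE3 library of ZMAT3 lay close to the controls, so the rise of 0.29 (SE 0.0933, adjusted p by edgeR 0.0271) rested on shTFE3 replicate 1, and without it the log2 fold change was 0.059 (edgeR adjusted p 0.627).

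PHLDA3, which blocks AKT at the membrane, did not pass, with 139 and 139 CPM in shTFE3 against 129 and 123 CPM in shControl (log2 fold change 0.15, 95% interval 0.024 to 0.27, adjusted p by edgeR 0.0759). It passed with library totals (edgeR adjusted p 0.0252) and at 50 counts (0.0473). A gene annotated on the same strand shares 19.1% of the PHLDA3 exon bases and held 0 counts in every library. Reads from that stretch may be missing from the PHLDA3 level. TP53INP1, a nuclear protein of the p53 and autophagy pathways, had 38.0 and 30.3 CPM in shTFE3 against 32.8 and 32.5 CPM in shControl. There the 2 shTFE3 libraries fell on either side of the controls. SUSD6, a membrane protein, and RPS27L, a ribosomal protein paralog, had log2 fold changes of 0.087 and 0.039 and did not pass (edgeR adjusted p 0.607 and 0.693).

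Among the regulators of p53, the family members TP63 and TP73 had at most 1 count in any library, and CDKN2A, which encodes the MDM2 inhibitor ARF, at most 2. Of 24 tested regulators, 2 rose (8.33%, near the 10.3% of all tested genes) and 0 fell (12.9% of all), and their log2 fold changes had a median of 0.032. The risen ones were CREBBP, an acetyltransferase and coactivator of p53 (106 and 105 CPM in shTFE3, 87.0 and 83.9 CPM in shControl, log2 fold change 0.30, adjusted p by edgeR 0.000637), and PRMT5, an arginine methyltransferase that modifies p53 (47.2 and 56.2 CPM in shTFE3, 41.1 and 41.8 CPM in shControl, log2 fold change 0.32, adjusted p by edgeR 0.00536). Without shTFE3 replicate 2 neither passed, CREBBP with a value of 0.31 (edgeR adjusted p 0.0523) and PRMT5 with 0.18 (0.183). The kinases ATM, ATR, CHEK1 and CHEK2 did not pass.

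A further list held 40 genes known as p53 targets. Of 37 tested, 7 rose and 6 fell, beside 10.3% and 12.9% of all tested genes, and the median of their log2 fold changes was 0.075. Among those with the smallest p were CYFIP2 (log2 fold change -0.61), KITLG (-0.61), THBS1 (-0.39), the death-domain adaptor PIDD1 (0.58), and TOB1 (0.47), a relative of BTG2. PIDD1 had 30.2 and 30.4 CPM in shTFE3 against 20.0 and 20.6 CPM in shControl. Without shTFE3 replicate 1, shTFE3 replicate 2 and shControl replicate 2 the risen genes of this list numbered 2, 2 and 3 (3.6%, 2.22% and 6.06% of all genes), and without shTFE3 replicate 2, 3 fell (4.08% of all genes). Of the sestrins and BCL2-family targets, 2 of 9 rose and 0 fell, beside 10.3% and 12.9% of all tested genes: BBC3, the death effector PUMA (log2 fold change 0.53, adjusted p by edgeR 0.000911), and SESN2 (0.27, adjusted p by edgeR 0.00736). Neither passed without shTFE3 replicate 1 (edgeR adjusted p 0.0566 and 0.0528), and SESN2 did not pass without shTFE3 replicate 2 or shControl replicate 2 (0.124 and 0.0762).

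p21 is known to lower cell cycle genes through the DREAM repressor complex, and a list of 30 such genes was set beside CDKN1A. By the same test 16 of the 30 rose and 0 fell, beside 10.3% and 12.9% of all tested genes, and the median over the list was 0.26 on the log2 scale. CDC20, the activator of the anaphase-promoting complex, had 77.4 and 88.1 CPM in shTFE3 against 52.3 and 50.7 CPM in shControl (log2 fold change 0.68), and AURKA, BUB1, FOXM1, KIF20A and CCNB1 rose by 0.59, 0.62, 0.54, 0.52 and 0.49 on that scale. Averaged over the list, log2 CPM was 5.28 and 5.63 in shTFE3 against 5.23 and 5.20 in shControl, so that shTFE3 replicate 2 stood well above the other 3 libraries. Without it, 6 of the 30 rose and 2 fell, beside 2.22% and 4.08% of all genes.

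In the p53 targets the knockdown libraries lay closer to each other. The mean log2 CPM of the 31 members was 5.99 and 5.93 in shTFE3 against 5.77 and 5.78 in shControl, both knockdown libraries above both controls. This order was not particular to the members. It held for the further targets (5.41 and 5.42 against 5.38 and 5.40) and the cell cycle list. The sestrin and BCL2 list (4.51 and 4.44 against 4.25 and 4.34) and the renal markers (5.33 and 5.45 against 5.32 and 5.21) had it too. Markers of other cell types did not (2.90 and 2.69 against 2.81 and 2.82), nor clearly the regulators (6.23 and 6.27 against 6.23 and 6.21). By role, the arrest genes lay at 6.42 and 6.44 in shTFE3 against 6.11 and 6.05 in shControl, and the repair genes at 5.94 and 5.79 in shTFE3 against 5.66 and 5.62 in shControl. The death receptors lay at 5.89 and 5.91 in shTFE3 against 5.75 and 5.86 in shControl, where the nearest libraries of the arms almost met. The part of cell cycle differences between the libraries in the levels of p53 targets was not tested.

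**Figure D3:**
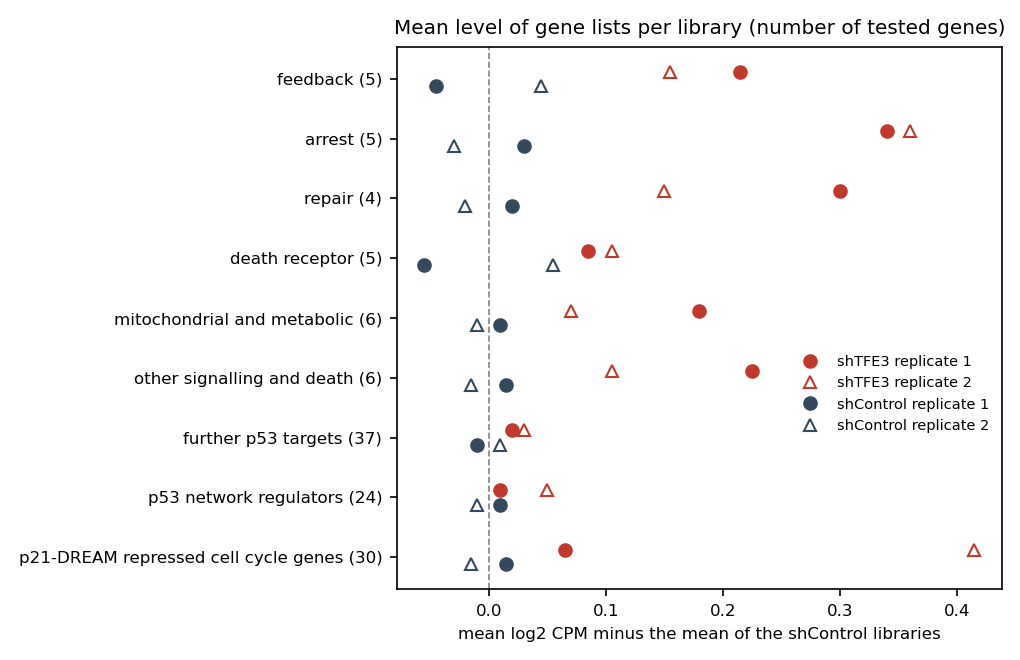
The mean log2 CPM of each gene list in each library is plotted as its difference from the mean of the shControl libraries, with the number of tested genes in brackets. Both shTFE3 libraries lie right of both shControl libraries in all 6 roles, of these farthest for the arrest genes. The same order is seen for the further targets, by little, and for the cell cycle list. The cell cycle list is high mainly in shTFE3 replicate 2 (5.63 against 5.28 in replicate 1).

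The call of CDKN1A held in all 12 alternative settings, and those of DDB2 and BTG2 in all but the one with no filter on low counts, where the edgeR adjusted p was 0.0673 and 0.0634. All 11 risen members kept a value above 0 in each of the 12 settings. They had been picked as risen in these same counts, with both shTFE3 libraries above both shControl libraries. A kept sign therefore adds little. POLH, PPM1D, TIGAR, ZMAT3, PLK3 and RRM2B did not pass by DESeq2, nor in at least 1 fit with a library left out. MDM2, FDXR and AEN passed by DESeq2 but also lost their call in at least 1 fit with a library left out.

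**Figure D4:**
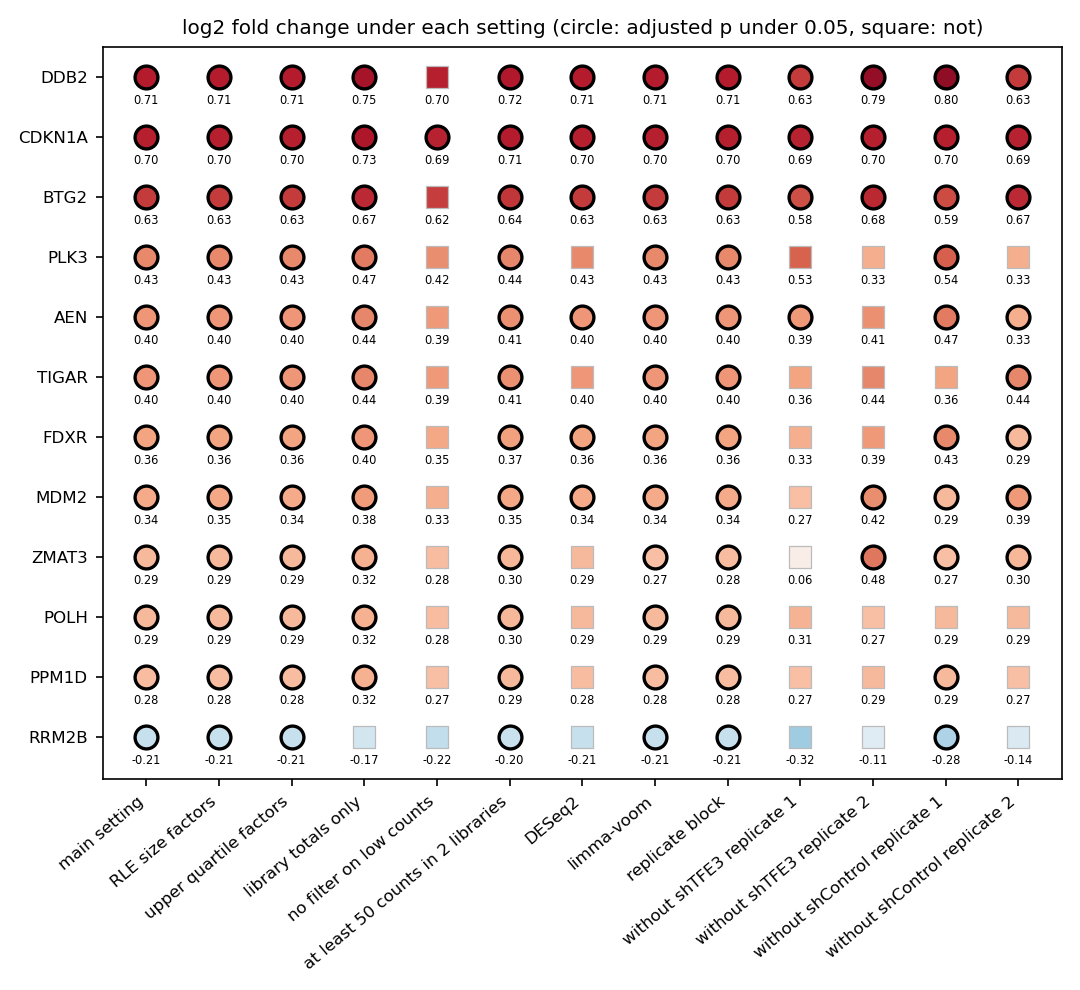
The log2 fold change of the 12 called p53 targets is printed under the main setting and 12 alternatives, as a circle where the adjusted p was under 0.05 and a square where it was not. CDKN1A is a circle throughout, and with no filter on low counts every other gene is a square although its value hardly moves.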

How the data were processed

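Polyadenylated RNA was sequenced as paired reads of 150 bases. The authors deposited raw counts of reads for each Ensembl gene. The tools were Trim Galore, STAR, featureCounts and DESeq2 on hg38, per the submitters' processing notes. Their versions, the annotation, the strand setting and the handling of ambiguous reads: not given in the sources used here. Overlapping genes therefore have uncertain levels. The authors' other deposited table gives, per the file headers, a mean normalized signal, log2 fold changes, a test score and p-values for selected genes.

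Groups came from the sample titles. Counts were tested with edgeR 4.0.16 (R 4.3.3): filterByExpr, TMM factors, arm as the only term, quasi-likelihood test, Benjamini-Hochberg adjustment over 15950 genes holding 99.8% of counts. Replicates had a coefficient of variation of 4.16%; the residual degrees of freedom were 2 and the prior ones 22.4. The chi-square of replicate counts per degree of freedom was 3.30 in shTFE3 and 2.00 in shControl, above sampling noise. Each library was counted as a replicate, but this spread does not show whether the libraries came from separate infections. SE is the absolute log2 fold change over the root of the test statistic; 95% intervals use 24.4 degrees of freedom. List means average log2 CPM (prior count 2). In simulated data the fit called 16 of 50 genes changed 1.25-fold, 37 of 50 changed 1.5-fold and 45 of 50 changed 2-fold. Of 15750 genes simulated without a change it called 3. The changed genes were picked at random, not at the levels of the members. Symbols came from a gene name table, coordinates and exon overlaps from GENCODE 29, and start windows from RefSeq (GRCh38.p14).

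The members, lists and settings were chosen with earlier results of these data known. Named were all members, TFE3, every regulator past the threshold and the 6 genes with the smallest p of each other list, except genes that are not reported here; TP63, TP73, CDKN2A and the kinases were named after their values were seen. Alternatives were RLE and upper quartile factors, library totals, no filter on low counts, at least 50 counts in 2 libraries, DESeq2 1.42.0, limma-voom (limma 3.58.1), a replicate term, and each library left out, where a lone sample is assumed to vary like the other arm. Chromatin immunoprecipitation was not analysed here.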

Additional observations from a re-analysis of the deposited data

How the results depend on the processing

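With no filter on low counts, 1 member rose and 0 fell (CDKN1A; MDM2 had 0.33, edgeR adjusted p 0.131), and risen genes numbered 1 of the arrest role, 1 of the further targets (2 fell) and 0 of the feedback, repair, mitochondrial and metabolic, and other signalling roles, the sestrin and BCL2 list, the regulators and the cell cycle list; prior degrees of freedom were then 2.09, and the cause was not tested. By DESeq2, 6 members rose and 0 fell, with 1 each in the feedback, repair, mitochondrial, and other signalling roles and 1 of the sestrin list. Library totals gave 0 fallen members, 0 fallen repair genes, 2 risen death receptors and 11 risen further targets. A filter at 50 counts gave 2 risen death receptors. Of all tested genes, 0.325% rose and 0.876% fell with no filter, and 5.5% and 8.82% by DESeq2. With library totals 13.3% rose and 10.5% fell, and at 50 counts 13.8% and 15.6%.

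Leaving out 1 library gave 4 to 10 risen and 0 to 1 fallen members, MDM2 values of 0.27 (edgeR adjusted p 0.0645) to 0.42, and a members' median of 0.10 to 0.21. By role 0 to 2 feedback genes, 2 to 3 arrest genes, 1 repair gene each time, 0 to 1 death receptors, 0 to 2 mitochondrial and 1 to 2 other signalling genes rose, and 0 to 1 repair genes fell. For the further targets 2 to 5 rose and 3 to 5 fell, for the regulators 0 to 2 rose and 0 to 1 fell, for the sestrin list 0 to 2 rose, and for the cell cycle list 6 to 16 rose and 0 to 2 fell. The fits without 1 library had prior degrees of freedom of 4.25, 3.98, infinite and 452, so their counts are not on equal terms. Each count is to be read against the share of all genes called in the same fit, given above.

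Deviations of same-numbered libraries had a correlation of -0.029 across genes, so no deviation shared by replicate number was seen. Such a value cannot show whether the libraries were prepared in pairs. The replicate block left 11 risen and 1 fallen members, and 1 cell cycle gene fell, where 9.83% of all tested genes rose and 12.5% fell. RLE factors (10.4% and 12.8% of genes), upper quartile factors (9.95% and 12.8%) and limma-voom (10.2% and 12.9%) also gave 11 and 1.

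Signs turned for 9 members that had not passed. Without shTFE3 replicate 1 these were CCNG1 (-0.017), XPC (-0.015), FAS (0.026), SPATA18 (-0.11) and TP53INP1 (-0.10). Without shControl replicate 1 they were CCNG1 (-0.031), TNFRSF10B (-0.0012), TP53I3 (0.026) and TRIAP1 (-0.016), without shControl replicate 2 FAS (0.056) and SPATA18 (-0.011), and without shTFE3 replicate 2 CMBL (0.010) and TP53I3 (0.046). TNFRSF10B had -0.0047 with no filter, and TP53I3 had 0.00022 with RLE factors, 0.035 with library totals and 0.0074 at 50 counts. With 1 library left out these 9 genes ranged from -0.031 to 0.063 (CCNG1), -0.015 to 0.24 (XPC), -0.15 to 0.056 (FAS), -0.050 to 0.046 (TP53I3), -0.11 to 0.17 (SPATA18), -0.016 to 0.081 (TRIAP1), -0.15 to 0.010 (CMBL) and -0.10 to 0.22 (TP53INP1), and TNFRSF10B reached -0.0012 at its lowest.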
